A study of Mus musculus with 32 samples.

Results

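The alveolar macrophage genes examined here are 8 listed genes, namely *Marco*, *Chil3*, *Ear1*, *Ear2*, *Pparg*, *Plet1*, *Abcg1* and *Msr1*, taken by symbol from the 29511 genes of the deposited tables. RNA was sequenced from lungs of virgin female FVB/N mice aged 6 to 8 weeks that carried *Clic4* (WT) or a constitutive *Clic4* knockout (KO), bred from heterozygous parents. The lungs formed 4 groups, namely control WT lungs (n = 4) and control KO lungs (n = 4) from mice without a tumor, and 14-day WT lungs (n = 6) and 14-day KO lungs (n = 6), taken 14 days after 6DT1 mouse mammary tumor cells were implanted in the fourth mammary fat pad and labelled pre-metastatic. The implanted cells carry *Clic4* in both host genotypes, and the 12 primary tumors of the same time point (6 from WT and 6 from KO hosts) were used for levels only. The libraries were made from whole tissue, so fewer alveolar macrophages and less of an RNA per macrophage cannot be told apart.

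Alveolar macrophages live in the air spaces of the lung, where they take up inhaled particles, bacteria, dying cells and surfactant lipid. They arise from fetal monocytes, and GM-CSF and TGF-beta drive their maturation through the nuclear receptor PPAR-gamma, the product of *Pparg*, which turns on genes of lipid handling. The listed genes cover several of their functions. *Marco* and *Msr1* encode class A scavenger receptors that bind bacteria, particles and modified lipoproteins. *Chil3* encodes Ym1, a secreted chitinase-like protein that cleaves no chitin. *Ear1* and *Ear2* encode secreted ribonucleases of the eosinophil-associated family, *Abcg1* a transporter that exports cholesterol, and *Plet1* a cell surface protein first described in placenta. None of these genes is particular to alveolar macrophages among all cells of the body: *Chil3* is also made by neutrophils and monocytes, the ribonucleases by eosinophils, *Pparg* by adipocytes, and *Msr1* by macrophages of other tissues.

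The genes lie apart in the genome (GRCm38, GENCODE M21), and none lies on chromosome 4, which carries *Clic4*. *Marco* (ENSMUSG00000026390) lies at chr1:120474538-120505024 on the minus strand and *Msr1* (ENSMUSG00000025044) at chr8:39581685-39642673 on the minus strand. *Chil3* (ENSMUSG00000040809) lies at chr3:106147554-106167564, *Pparg* (ENSMUSG00000000440) at chr6:115360951-115490399, *Plet1* (ENSMUSG00000032068) at chr9:50494525-50505482 and *Abcg1* (ENSMUSG00000024030) at chr17:31057675-31117988. The ribonuclease genes are neighbors on chromosome 14, *Ear1* (ENSMUSG00000072601) at 43818765 to 43875517 and *Ear2* (ENSMUSG00000072596) at 44102654 to 44103534. RefSeq promoters, from 250 bases before to 50 bases after the start (GRCm38.p6), were given for 6 of the 8 genes, with 3 for *Pparg* and 8 promoters in all. The promoters of *Marco* and *Chil3* are shown because these genes passed the test in a lung comparison. Capitals mark matches, on either strand, to the motifs searched, TATAA (TATA box), GAGGAAG (PU.1 core), AGGTCA (nuclear receptor half-site), TGANTCA (AP-1) and CACGTG (E-box).
Marco promoter, chr1:120504975-120505274, minus strand: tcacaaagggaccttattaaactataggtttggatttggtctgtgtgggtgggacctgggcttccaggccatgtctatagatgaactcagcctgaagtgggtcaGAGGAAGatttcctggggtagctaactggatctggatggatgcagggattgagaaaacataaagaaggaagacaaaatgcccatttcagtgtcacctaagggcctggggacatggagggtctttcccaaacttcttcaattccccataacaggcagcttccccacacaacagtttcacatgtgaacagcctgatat
Chil3 promoter, chr3:106167515-106167814, minus strand: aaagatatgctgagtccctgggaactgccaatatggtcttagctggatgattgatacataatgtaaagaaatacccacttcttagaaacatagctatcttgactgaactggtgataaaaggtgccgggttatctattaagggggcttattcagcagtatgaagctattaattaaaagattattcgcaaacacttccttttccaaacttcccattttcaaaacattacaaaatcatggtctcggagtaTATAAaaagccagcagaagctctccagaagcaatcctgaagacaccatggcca
The GAGGAAG match of *Marco* starts at -146 from the gene's start, and 13.6% of all 32851 promoters of this length hold these letters. The TATAA match of *Chil3* starts at -3, and 24.9% of all promoters hold one, against 3 of the 8 promoters of the listed genes. AGGTCA was found in 3 of the 8 promoters, in *Plet1* and 2 of those of *Pparg*, against 16.3% of all promoters, TGANTCA in 1 (*Plet1*) against 7.81%, and CACGTG in 0 against 7.15%.

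*Ear1* and *Ear2* are near-identical copies, and reads of one could be assigned to the other. Their transcripts matched at 690 of 713 aligned bases (96.8%) and their coding sequences at 445 of 465. The first 150 coding bases, which lie in the single coding exon of each gene, are shown with the bases that differ in capitals, and they matched at 145 positions.
Ear1, chr14:43819260-43819409, minus strand: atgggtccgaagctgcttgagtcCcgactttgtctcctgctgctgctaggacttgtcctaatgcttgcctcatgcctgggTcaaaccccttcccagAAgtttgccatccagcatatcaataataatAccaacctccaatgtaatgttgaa
Ear2, chr14:44102887-44103036, plus strand: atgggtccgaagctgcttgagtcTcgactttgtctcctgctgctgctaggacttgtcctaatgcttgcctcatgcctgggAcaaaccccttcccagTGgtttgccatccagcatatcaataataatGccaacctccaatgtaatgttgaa
*Ear10*, another member of this family, matched *Ear2* at 94.7% of aligned transcript bases, and *Chil4* matched *Chil3* at 94.4%. The counts differed widely between the copies, with 279 to 1024 for *Ear2*, 8 to 29 for *Ear1*, 18 to 102 for *Ear10* and 2 to 10 for *Ear6* in the 20 lungs. *Chil3* had 784 to 3288 counts and *Chil4* 0 to 28. How far assignment between copies moved the small values of *Ear1* was not tested.

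The targeted gene was checked first. *Clic4* was at 154.6 to 229.7 FPKM (fragments scaled for transcript length and library size) in the 10 WT lungs and at 55.4 to 74.6 FPKM in the 10 KO lungs, without overlap. The 20 lung libraries held 4567220 to 8318711 counts assigned to genes. Lung markers were present, with *Sftpc*, the surfactant protein of alveolar type 2 cells, at 6852 to 9935 FPKM in lungs and at most 0.74 FPKM in tumors. In tumors *Krt8* and *Krt18* were at 164.2 to 275.2 and 107.5 to 182.8 FPKM, above all lungs, but *Epcam* (1.35 to 12.6), *Cdh1* (1.47 to 10.5) and *Krt7* (0.32 to 2.48) were low. Of the 8 epithelial markers listed for the mammary tumor, 2 had a higher median in tumors than in lungs and 6 a lower one. *Siglecf*, a surface marker that alveolar macrophages share with eosinophils, was at 2.19 to 6.19 FPKM in lungs, while the eosinophil granule genes *Prg2* and *Epx* were at most 0.51 and 0.08 FPKM.

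Levels of the 8 genes were compared per length, in FPKM. In lungs *Chil3* was highest, at 241.9 ± 78.7 FPKM (SD, n = 20), followed by *Ear2* at 185.8 ± 41.0 FPKM. These genes stood above 99.3% and 99.1% of all genes in the FPKM table. *Abcg1* was at 42.1 ± 5.90 FPKM and *Plet1* at 29.6 ± 4.55 FPKM. *Pparg* (6.76 ± 1.24 FPKM), *Ear1* (5.67 ± 2.21), *Marco* (4.31 ± 2.01) and *Msr1* (3.12 ± 0.926) formed a low group whose neighbors in this order overlapped, as did *Chil3* with *Ear2* and *Abcg1* with *Plet1*. Between these groups the lowest lung of *Ear2*, at 114.2 FPKM, was above the highest of *Abcg1*, at 53.8, and the lowest of *Plet1*, at 22.5, was above the highest of *Pparg*, at 9.74. Between 61.8% and 70.0% of the FPKM of a lung lay on *Rn7sk* and the pair *Rn7s1* and *Rn7s2*, which encode abundant small RNAs, so that values within a gene were compared in TMM-normalized CPM (counts relative to library size, with sizes scaled by the trimmed mean of M values).

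**Figure D1:**
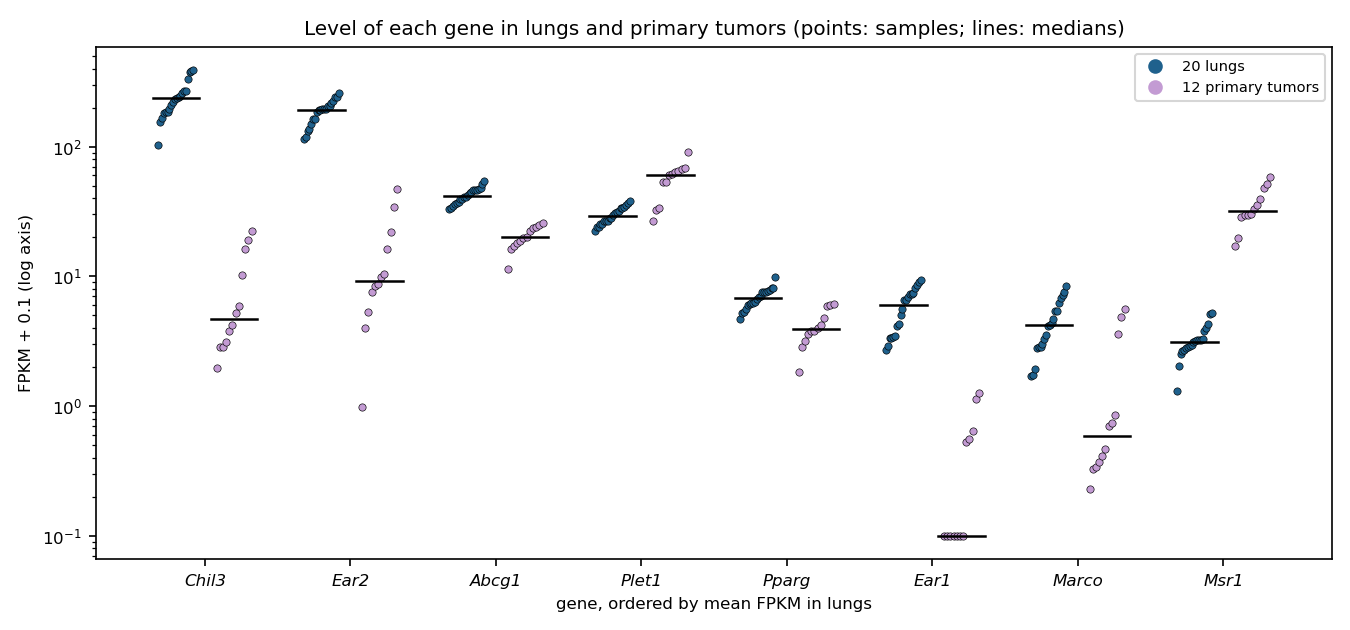
FPKM + 0.1 (log axis) of the 8 genes in 20 lungs (blue) and 12 primary tumors (violet), with each sample as a point and the median as a line. Lungs lie far above tumors for *Chil3*, *Ear2* and *Ear1*, whose tumor medians were 4.63, 9.18 and 0 FPKM, and below tumors for *Msr1*, where the highest lung was at 5.08 and the lowest tumor at 17.0 FPKM.

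In the primary tumors the order of the genes was another one. *Plet1* was highest, at 56.3 ± 18 FPKM (SD, n = 12), and *Msr1* followed at 35.0 ± 12.4 FPKM. *Msr1* tumor levels reached from 17.0 to 58.6 FPKM against 1.2 to 5.08 FPKM in lungs, and its mean was 7.94 times that of 14-day lungs in WT hosts and 11.8 times in KO hosts. *Msr1* was the gene of the list with the widest gap in favor of tumors. *Plet1* was at 26.5 to 90.2 FPKM in tumors and 22.5 to 37.9 in lungs, so the ranges overlapped. *Abcg1* (20.1 ± 4.17 FPKM in tumors) and *Pparg* (4.07 ± 1.32) were lower in tumors than in lungs on average. The secreted proteins showed the opposite gap to *Msr1*: 14-day lungs of WT hosts held 31.4 times the mean tumor FPKM of *Chil3* and 14.1 times that of *Ear2*, and *Ear1* had 0 counts in 7 of 12 tumors. *Marco* was between 0.13 and 0.75 FPKM in 9 tumors and at 3.47, 4.78 and 5.53 FPKM in the other 3, of which 2 were from KO and 1 from WT hosts. Other macrophage genes differed in both directions between the tissues. By median FPKM, 5 of 8 pan-macrophage genes were higher in tumors and 3 lower, and 9 of 11 interstitial macrophage genes were higher and 2 lower. *C1qa*, a complement gene of tissue macrophages, had a median of 224.0 FPKM in tumors and 29.6 in lungs, while *Lyz2*, lysozyme of myeloid and type 2 cells, had 487.2 and 2003 FPKM and *Lyve1* 15.7 and 49.4 FPKM. Lungs and tumors were not tested against each other, and adipocyte markers moved with the tissue as well, *Adipoq* being at 10.97 to 44.9 FPKM in tumors and 2.62 to 10.4 in lungs. The part of other cell types in these levels was not tested.

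**Figure D2:**
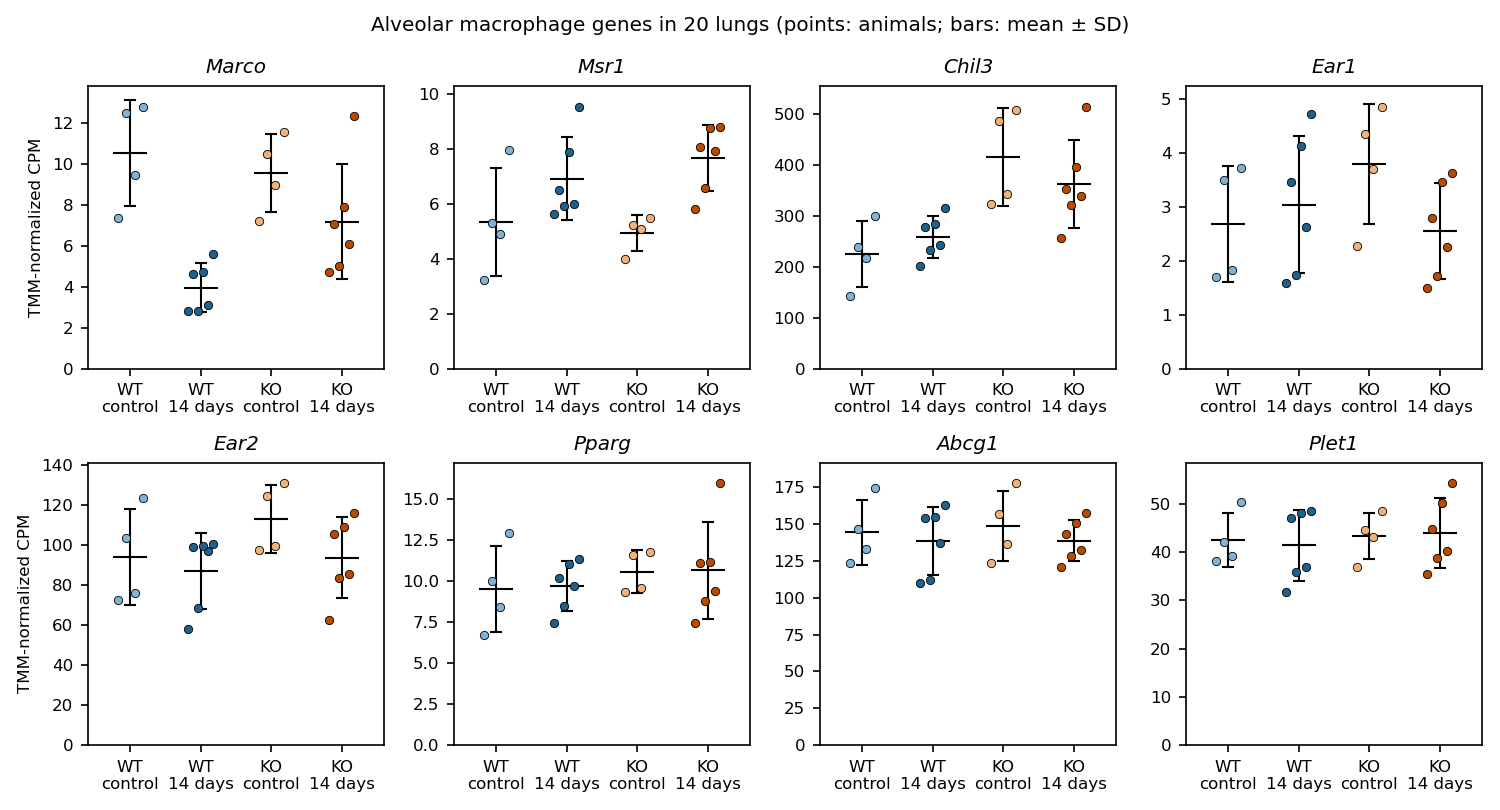
TMM-normalized CPM of each gene in the 4 groups of lungs, with each animal as a point and the mean ± SD as bars. The 6 14-day WT lungs lie between 2.81 and 5.59 CPM for *Marco*, under all 4 control WT lungs, and the 4 control KO lungs lie between 323.3 and 508.1 CPM for *Chil3*, above all 4 control WT lungs.

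To ask what an implanted tumor was accompanied by in the lung, 14-day lungs were compared with control lungs within each genotype. A gene is called here when edgeR's quasi-likelihood test gave a false discovery rate (FDR) under 0.25 over all 16029 genes tested and the change was at least 1.5-fold, the limits the study used for lungs. All 8 genes passed the filter on low counts. In WT lungs *Marco* was the gene called, 1 of 8 against 0.574% of all genes tested. *Marco* was at 12.8, 9.46, 7.36 and 12.5 CPM in control WT lungs, and in 14-day WT lungs its lowest, median and highest values were 2.81, 3.88 and 5.59 CPM. The groups did not overlap, which was so for 1 of 8 members and for 2.98% of all genes tested. *Marco* fell by 1.42 on the log2 scale (SE 0.25, edgeR FDR 0.0935). Only 0.0312% of the genes tested had a more negative change in this comparison. The 14-day WT libraries held 15 to 34 *Marco* counts each and the control WT libraries 39 to 106, so that counting error is part of this spread.

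The other scavenger receptor of the list did not follow. *Msr1* was at 5.30, 4.91, 3.21 and 7.94 CPM in control WT lungs and at 5.62, 6.24 and 9.52 CPM (lowest, median, highest) in 14-day WT lungs, so the groups overlapped. Its log2 change was 0.36 (SE 0.20, edgeR FDR 0.495). The remaining 6 genes had log2 changes between -0.12 for *Ear2* and 0.20 for *Chil3* in WT lungs, with SE from 0.12 to 0.33. *Chil3* was at 142.6 to 300.02 CPM in control WT and 201.2 to 315.2 CPM in 14-day WT lungs, *Abcg1* at 123.5 to 174.5 and 109.9 to 162.8 CPM, and *Plet1* at 38.1 to 50.5 and 31.7 to 48.6 CPM. These ranges overlapped, and so did those of *Ear1*, *Ear2* and *Pparg*. The median log2 change of the 8 genes was -0.02 beside 0.00 over all genes tested.

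In KO lungs no member was called by edgeR (0 of 8 against 0.262% of all genes tested), and 1 of 8 had an unadjusted p under 0.05, against 8.64%. DESeq2 called no member either, against 32 of the 10145 genes it gave an adjusted p, and it gave 3 of the members none. *Marco* was at 11.6, 8.96, 10.5 and 7.20 CPM in control KO lungs and at 4.72, 6.55 and 12.3 CPM (lowest, median, highest) in 14-day KO lungs. One 14-day KO lung was above all control KO lungs, and 4 of 6 were below all of them. The log2 change of *Marco* was -0.41 (SE 0.24, edgeR FDR 0.669). *Msr1* was the member with the smallest p, at 5.22, 5.06, 5.49 and 3.98 CPM in control KO lungs and at 5.81, 7.99 and 8.79 CPM (lowest, median, highest) in 14-day KO lungs. Its groups did not overlap, which was so for 1 of 8 members and 2.18% of all genes tested, and its log2 change was 0.63 (SE 0.21, edgeR FDR 0.307). *Ear1* had a log2 change of -0.57 (SE 0.33, edgeR FDR 0.663) from counts of 12 to 27 to counts of 8 to 21, and the other 5 genes lay between -0.27 and 0.02.

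Over both genotypes, *Marco* was called with a fall by 0.91 on the log2 scale (SE 0.17, edgeR FDR 0.0343), 1 of 8 against 0.574% of all genes tested. *Msr1* had an FDR of 0.148 (edgeR) with a log2 change of 0.49 (SE 0.14), which is under 1.5-fold. Without control WT replicate 4, its log2 change was 0.62 (edgeR FDR 0.0637) and it was called. The log2 changes of *Chil3*, *Pparg* and *Plet1* were within 0.01 of 0, with SE from 0.09 to 0.13. These values rest on the same lungs as the comparisons within each genotype.

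**Figure D3:**
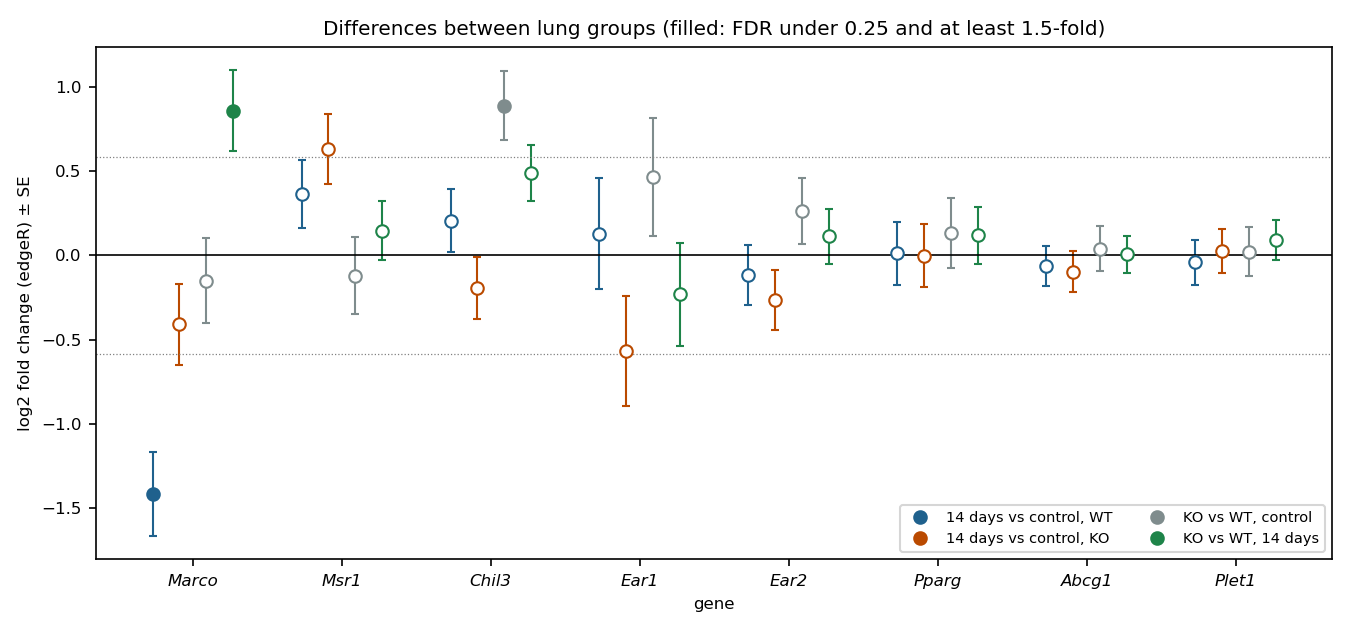
Log2 fold change ± SE of each gene (edgeR) in 4 comparisons of lung groups, with filled points for FDR under 0.25 and at least 1.5-fold and dotted lines at 1.5-fold. The filled points are *Marco* in WT lungs with tumor (-1.42), *Marco* in KO against WT 14-day lungs (0.86) and *Chil3* in KO against WT control lungs (0.89), and *Abcg1*, *Plet1* and *Pparg* stay within 0.14 of 0.

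The genotypes were compared in 14-day lungs to ask whether the host's *Clic4* went with another level of these genes beside a tumor. *Marco* was higher in 14-day KO than in 14-day WT lungs by 0.86 on the log2 scale (SE 0.24, edgeR FDR 0.234), 1 of 8 members called against 0.212% of all genes tested. The 14-day KO lungs (4.72 to 12.3 CPM) and 14-day WT lungs (2.81 to 5.59 CPM) overlapped, with 4 of 6 KO lungs above every WT lung, and no member had groups that did not overlap, against 0.549% of all genes tested. The call is close to its limit. The FDR of *Marco* was 0.405, 0.339 and 0.412 without 14-day KO replicates 2, 3 and 6, and 0.293, 0.271, 0.373, 0.344 and 0.320 without 14-day WT replicates 2, 3, 4, 5 and 6. It was 0.282 without control KO replicate 2 and likewise without 3, and 0.252, 0.259 and 0.261 without control WT replicates 1, 2 and 4. The log2 difference of *Marco* lay between 0.64 and 0.98 over all 20 fits that left out 1 lung, and the lowest was without 14-day KO replicate 2. With the 12 compared lungs alone the FDR was 0.401.

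In control lungs *Marco* showed a log2 difference of -0.15 between KO and WT (SE 0.25, edgeR FDR 0.859), with 7.20 to 11.6 CPM in KO and 7.36 to 12.8 CPM in WT lungs. Whether its fall beside a tumor differed between genotypes was tested as the interaction of genotype and tumor. The difference of the *Marco* changes was 1.01 on the log2 scale (SE 0.35), with an unadjusted p of 0.00846 in edgeR's test and an FDR of 0.438, so it did not pass. No member was called for the interaction by edgeR (0 of 8 against 0.0499% of all genes tested), and 1 of 8 had an unadjusted p under 0.05, against 8.53%. DESeq2 called no member either, against 198 of the 8518 genes it gave an adjusted p. It gave 4 of the members none, *Marco* among them.

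*Chil3* differed between genotypes before any tumor. It was at 238.6, 142.6, 217.0 and 300.02 CPM in control WT lungs and at 487.5, 343.8, 508.1 and 323.3 CPM in control KO lungs. The groups did not overlap, as for 1 of 8 members and 7.6% of all genes tested. *Chil3* was higher in control KO lungs by 0.89 on the log2 scale (SE 0.20, edgeR FDR 0.168), 1 of 8 members called against 0.231% of all genes tested. The FDR was 0.333 and 0.348 without control KO replicates 2 and 3, 0.472 and 0.415 without control WT replicates 2 and 3, and 0.354 with offsets for GC content, while DESeq2 gave *Chil3* an adjusted p of 0.0322. The log2 difference stayed between 0.73 and 1.05 when 1 lung was left out. In 14-day lungs, which are other animals, *Chil3* was at 256.5, 345.9 and 514.3 CPM (lowest, median, highest) in KO and at 201.2, 259.9 and 315.2 CPM in WT lungs. Of the KO lungs, 5 of 6 were above every WT lung, and the log2 difference was 0.49 (SE 0.17, edgeR FDR 0.377), which did not pass. The difference between both values, the interaction, was -0.40 (SE 0.26, edgeR FDR 0.711).

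*Ear2*, the other abundant secreted product, did not show this difference beyond its spread, with 97.4 to 130.8 CPM in control KO and 72.4 to 123.5 CPM in control WT lungs (log2 difference 0.26, SE 0.20, edgeR FDR 0.630). Within a lung, the count of *Chil3* was 1.93 to 2.89 times that of *Ear2* in control WT lungs and 3.25 to 4.08 times in control KO lungs. At 14 days this ratio was 2.41 to 4.03 in WT and 3.11 to 4.43 in KO lungs, which overlapped. The ratio was formed after the values of these genes had been seen, and no test is given for it. *Abcg1*, *Plet1*, *Pparg* and *Ear1* had log2 differences of 0.04, 0.02, 0.13 and 0.47 in control lungs (SE 0.13, 0.14, 0.21 and 0.35).

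**Figure D4:**
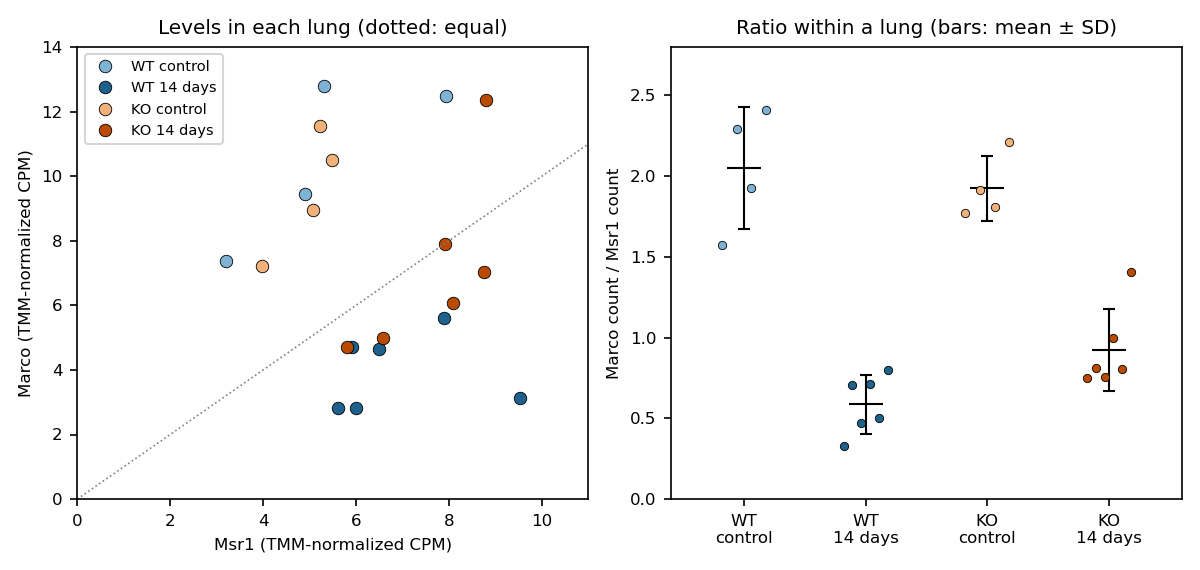
Left, *Marco* against *Msr1* in TMM-normalized CPM in each of 20 lungs, with a dotted line where both are equal. Right, the ratio of *Marco* to *Msr1* counts in each lung with the mean ± SD of each group; all 12 14-day lungs lie at 0.327 to 1.40 and all 8 control lungs at 1.57 to 2.41.

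The pair of class A scavenger receptors was set against each other within each lung, since a ratio of counts does not depend on the scaling of libraries. *Marco* had 2.05 ± 0.38 times the counts of *Msr1* in control WT lungs (SD, n = 4) and 0.587 ± 0.182 times in 14-day WT lungs (SD, n = 6). The ratios were 1.93 ± 0.201 in control KO lungs and 0.921 ± 0.253 in 14-day KO lungs. Every 14-day lung of both genotypes was under every control lung, with the highest 14-day value at 1.40 in a KO lung and the lowest control value at 1.57 in a WT lung. At 14 days the highest WT ratio was 0.800 and the lowest KO ratio 0.750. As with *Chil3* and *Ear2*, the ratio was chosen after the values were seen and is given without a test.

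The members were next compared with other genes of the same cells and pathways, by lists of genes. Of 20 further alveolar macrophage genes, 19 were tested and 0 were called by edgeR in any comparison. In WT lungs 1 of them was higher and 2 were lower at 14 days at an unadjusted p under 0.05, which 11.8% of all genes tested reached in either direction, and their median log2 change was -0.07. In KO lungs 0 were higher and 2 lower (8.64% of all genes tested), with 15 of 19 log2 changes below 0 (49.0% of all genes tested), and over both genotypes 0 were higher and 5 lower (11.98%). In KO against WT 14-day lungs 1 was higher and 0 lower (8.34%), with 14 of 19 log2 differences above 0 (50.6% of all genes tested). In 14-day against control WT lungs *Ear10*, the near copy of *Ear2*, had a log2 change of -0.57 (SE 0.25, edgeR FDR 0.379). In the same comparison *Fabp4*, which carries fatty acids and is also abundant in adipocytes, had 0.76 (SE 0.29, FDR 0.318). In control lungs 4 of the 19 were higher in KO and 0 lower at an unadjusted p under 0.05, against 856 genes higher and 1004 lower of all 16029 tested (11.6%), and 16 of 19 log2 differences were above 0 (49.1% of all genes tested), with a median of 0.09. *Mrc1*, the mannose receptor, was among these 4 with 0.31 (SE 0.11, FDR 0.289). So were *Fabp4* (0.77, SE 0.31, FDR 0.369) and *Cidec* (0.43, SE 0.19, FDR 0.403), which are listed as adipocyte genes as well. All 7 adipocyte genes tested had a log2 difference above 0 in this comparison, with a median of 0.51.

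Of 17 genes of GM-CSF, TGF-beta and the transcription factors of these cells, 1 was called in a comparison of tumor and control lungs, in KO, where 0.262% of all genes tested were called. *Tgfb1*, the cytokine itself, was higher in 14-day than in control KO lungs by 0.66 on the log2 scale (SE 0.17, edgeR FDR 0.173). In WT lungs the log2 change of *Tgfb1* was -0.22 (SE 0.16, FDR 0.619), and its log2 difference between KO and WT was -0.41 in control lungs (SE 0.18, FDR 0.404) and 0.47 in 14-day lungs (SE 0.15, FDR 0.304). The interaction for *Tgfb1* was 0.88 (SE 0.23, edgeR FDR 0.300), which did not pass. At an unadjusted p under 0.05, 1 of the 17 genes was higher and 2 were lower in WT lungs with tumor (11.8% of all genes tested). In KO lungs 3 were higher and 0 lower (8.64%). The 2 lower in WT lungs were *Klf4* and *Cebpb*, both transcription factors, with log2 changes of -0.52 (SE 0.21, FDR 0.340) and -0.41 (SE 0.18, FDR 0.379). Of 19 genes of lipid handling, 0 were called by edgeR in any comparison, as for *Pparg* and *Abcg1*, and at an unadjusted p under 0.05 3 were higher and 0 lower in WT lungs with tumor (11.8% of all genes tested) and 1 higher and 2 lower in KO lungs (8.64%). In KO against WT control lungs 13 of the 19 had a log2 difference above 0 (49.1% of all genes tested), with a median of 0.11. At an unadjusted p under 0.05, 3 were higher and 2 lower there (11.6%). The smallest p in control lungs was that of *Scarb1*, a receptor for high-density lipoprotein, which had a log2 difference of -0.40 between KO and WT (SE 0.08, FDR 0.102), under 1.5-fold. Of 16 other scavenger receptors and receptors for dying cells, 0 were called by edgeR in any comparison. *Stab1*, a scavenger receptor of endothelium and macrophages, had a log2 difference of -0.30 between KO and WT in 14-day lungs (SE 0.08, FDR 0.142) and of -0.36 in control lungs (SE 0.09, FDR 0.220), both under 1.5-fold. At an unadjusted p under 0.05, in 14-day against control lungs, 0 of these 16 were higher and 1 was lower in WT lungs (11.8% of all genes tested), and likewise in KO lungs (8.64%). In KO against WT lungs, 0 were higher and 4 lower in control lungs (11.6%) and 0 higher and 3 lower in 14-day lungs (8.34%).

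Among chitinase-like and ribonuclease relatives, 3 of 9 were tested. *Chil1*, which encodes the chitinase-like protein BRP-39, was called in WT lungs, where it was lower at 14 days by a log2 change of -0.66 (SE 0.17, edgeR FDR 0.158), 1 of 3 against 0.574% of all genes tested. All 3 were lower at an unadjusted p under 0.05 in WT lungs (11.8% of all genes tested, in either direction) and over both genotypes (11.98%), and 1 of 3 was in KO lungs (8.64%). In KO lungs its log2 change was -0.44 (SE 0.18, FDR 0.453). *Chil1* is also among the listed granule genes of immature neutrophils.

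Markers of other cells moved with the comparisons as follows. Of 9 neutrophil genes tested, 4 were called higher in 14-day than in control WT lungs, against 0.574% of all genes tested, and 2 in KO lungs, against 0.262%. They were *S100a8*, *S100a9*, *Mmp8* and *Cxcr2* in WT lungs, with *S100a8* at a log2 change of 2.02 (SE 0.54, edgeR FDR 0.164), and *Csf3r* and *Cxcr2* in KO lungs, with *Cxcr2* at 1.02 (SE 0.30, FDR 0.248). Over both genotypes 8 of the 9 neutrophil genes were called higher, against 0.574% of all genes tested. *Ngp*, a granule gene of immature neutrophils, was called higher there by 1.74 (SE 0.52, edgeR FDR 0.152), 1 of 4 such genes tested. Of these 4, 2 had a log2 change above 0 and 2 below, with a median of -0.17. At an unadjusted p under 0.05, 1 was higher and 2 were lower (11.98% of all genes tested, in either direction). The summed neutrophil genes were at 58.0 to 96.1 CPM in control WT, 101.5 to 352.8 in 14-day WT, 60.9 to 105.7 in control KO and 44.0 to 401.9 CPM in 14-day KO lungs. These sums overlapped between control WT and control KO lungs, where *Chil3* differed. Of 10 monocyte genes, which bear on *Chil3* as well, 0 had a log2 difference above 0 between control KO and control WT lungs (49.1% of all genes tested), with a median of -0.28, and 0 of 10 had an unadjusted p under 0.05 (11.6%). Of 8 pan-macrophage genes 0 were called by edgeR in any comparison (0 of 8 at an unadjusted p under 0.05 in each), and their sum was at 1981 to 2841 CPM in control WT, 2286 to 2662 in 14-day WT, 2299 to 3227 in control KO and 2106 to 2974 CPM in 14-day KO lungs. Where *Marco* fell in WT lungs, the median log2 change of the pan-macrophage genes was 0.06, that of the monocyte genes 0.15 and that of 11 interstitial macrophage genes 0.07. In the same comparison 9 of 9 alveolar type 2 genes had a log2 change below 0 (49.3% of all genes tested), with a median of -0.12, 0 called by edgeR and 3 lower at an unadjusted p under 0.05 (11.8% of all genes tested, in either direction). All 9 had a log2 difference above 0 in KO against WT 14-day lungs (50.6% of all genes tested), the direction of *Marco*. These differences were 0.09 to 0.26, with a median of 0.11. In that comparison 0 of the 9 were called by edgeR, and 2 were higher and 0 lower at an unadjusted p under 0.05 (8.34%). Of 7 proliferation genes, 6 had a log2 change below 0 in WT lungs with tumor, with a median of -0.31, and *Mcm5*, of the replicative helicase, was called lower there (-0.63, SE 0.17, edgeR FDR 0.160), 1 of 7 against 0.574% of all genes tested. *Cdk1*, the mitotic kinase, was called lower in control KO than in control WT lungs (-1.41, SE 0.38, edgeR FDR 0.232), 1 of 7 against 0.231% of all genes tested. All 7 proliferation genes had a log2 difference below 0 there, as had 50.9% of all genes tested. *Lyve1*, a marker of one kind of interstitial macrophage and of lymphatic vessels, was lower in 14-day KO than in 14-day WT lungs by a log2 difference of -0.92 (SE 0.18, edgeR FDR 0.0491), the 1 call of 11 genes (0.212% of all genes tested). Of these 11 genes, 7 had a log2 difference above 0, and their median was 0.16. The summed adipocyte genes, which bear on *Pparg*, were at 58.6 to 83.3 CPM in control WT and 80.6 to 143.1 CPM in control KO lungs, and at 78.4 to 179.2 CPM in 14-day WT and 42.5 to 138.9 CPM in 14-day KO lungs. The part of these cells in the results for the members was not tested.

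**Figure D5:**
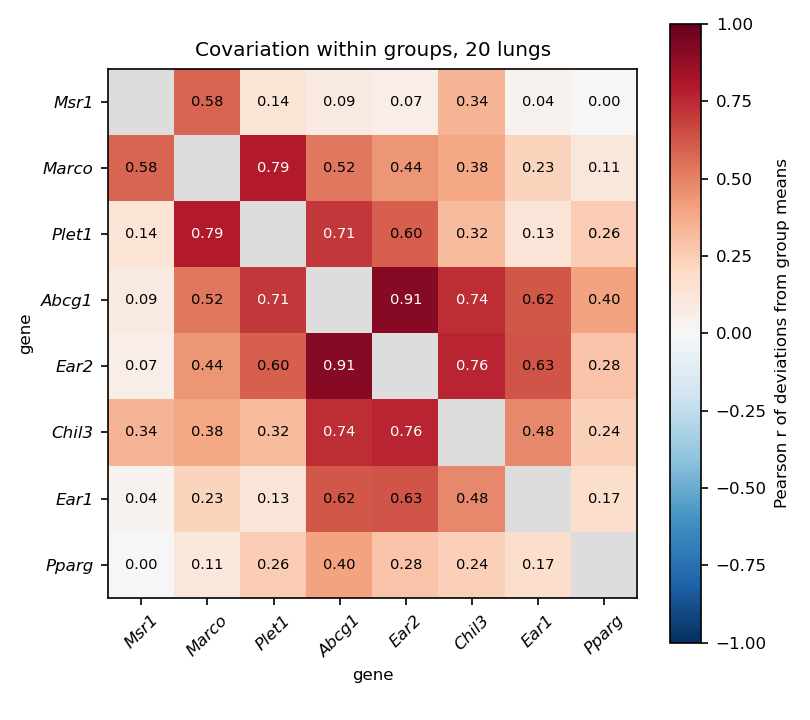
Pearson r between the members over 20 lungs, computed on deviations of log2(CPM + 1) from the mean of each lung's group. The block of *Abcg1*, *Ear2* and *Chil3* holds values of 0.74 to 0.91, *Marco* and *Plet1* reach 0.79, and *Msr1* has 0.001 to 0.141 with 5 of the other 7 genes.

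Some members varied together between animals of a group. After each group's mean was taken out, all 28 pairs of members had a Pearson r above 0 over the 20 lungs, with a median of 0.364 and a range of 0.001 to 0.908, and 27 of 28 did in FPKM. Within single groups this did not hold for all pairs. In 14-day WT lungs 5 of 28 pairs were below 0, all of them with *Msr1*, and the median was 0.594. In 14-day KO lungs 11 of 28 pairs were below 0, among them *Ear1* with *Plet1* (-0.792), *Msr1* (-0.785) and *Marco* (-0.647), and the median was 0.053. Over all pairs of the 16029 genes tested, the median was -0.001 and 49.9% were above 0. The points share a library in each lung, so depth and tissue makeup are common to both genes of a pair, and the low counts of *Ear1*, *Marco* and *Msr1* add counting error. *Ear2* and *Abcg1* had the highest r of 0.908 (Spearman's rho 0.881, adjusted p = 0.00028 for both over 28 pairs, the smallest that 100000 permutations within groups can give, and r 0.908 without the 2 lungs farthest from the median). This pair gave r of 0.921 within the 6 14-day WT lungs and 0.938 within the 6 14-day KO lungs.

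*Chil3* went with the same genes, with r of 0.758 to *Ear2* (rho 0.635, permutation test with adjusted p of 0.00385 and 0.0275, r 0.724 without the 2 farthest lungs) and 0.741 to *Abcg1* (rho 0.752, adjusted p of 0.00385 and 0.00737, r 0.716 without the 2 farthest). *Marco* went most closely with *Plet1*, at r of 0.790 (rho 0.777, adjusted p of 0.00385 and 0.0056, r 0.724 without the 2 farthest), and reached 0.900 within 14-day WT and 0.906 within 14-day KO lungs. *Marco* and *Msr1*, whose group means moved apart with a tumor, had r of 0.579 (rho 0.677, adjusted p of 0.0427 and 0.0242, r 0.564 without the 2 farthest), though within 14-day lungs this was 0.142 in WT and 0.785 in KO. In all, 9 of the 28 pairs passed an adjusted p under 0.05 for r. *Pparg* was in none of them, its highest r being 0.402 to *Abcg1*. *Ear1* and *Ear2* had r of 0.629 (rho 0.529, adjusted p of 0.0427 and 0.087, r 0.588 without the 2 farthest), where shared reads between the copies were not tested.

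By the same measure, over the 20 lungs, the genes most like the mean of the 8 members were *Ctsd* (r 0.846), *Mrc1* (0.827), *Cd68* (0.820), *Lgals3* (0.814), *Ear-ps2* (0.811), *Rpl11* (0.810), *Ctsz* (0.807) and *Nme1* (0.807). *Ctsd* and *Ctsz* encode lysosomal cathepsins, *Cd68* a lysosomal glycoprotein of macrophages, *Lgals3* galectin-3, and *Rpl11* a ribosomal protein, and *Ear-ps2* is a pseudogene of the ribonuclease family whose reads may be shared with *Ear2*. Over all other genes tested the 95th percentile of r to this mean was 0.414. The further alveolar macrophage genes had a median r of 0.598 to it, 4 granule genes of immature neutrophils 0.432, the pan-macrophage genes 0.398, the proliferation genes 0.374, the monocyte genes 0.074, the interstitial macrophage genes 0.030 and the neutrophil genes -0.050. *Siglecf* reached 0.701. The genes most like *Marco* alone were *Wdr7* (r 0.791), *Chil1* (0.779), *C3* (0.765), *Pidd1* (0.757) and *Gm10053* (0.757). *Chil1* thus had both a fall in WT lungs at 14 days and a covariation with *Marco* within groups, while *C3*, the central complement component, had a log2 change of 0.02 in WT lungs (edgeR FDR 0.965).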

How the data were processed

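Total RNA of frozen lung and tumor tissue was made into stranded mRNA libraries and sequenced. The authors aligned reads to GRCm38 with STAR and quantified genes with RSEM, and they deposited its expected counts as whole numbers and its FPKM values, which scale for length and library size. The annotation release they used is not given in the sources used here. Replicates are separate animals. The members and the gene lists were chosen with earlier results of these data known.

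Expected counts of the 20 lungs were fitted together with edgeR 4.0.16 (R 4.3.3), with TMM scaling, filterByExpr, 1 mean per group and Benjamini-Hochberg adjustment over 16029 genes. The SE is the log2 fold change divided by the square root of F. FPKM served for levels between genes. Covariation used two-sided permutation tests with 100000 resamples within groups. Named are all members, Clic4, markers of lung and tumor, list genes past the limits (at most 4 per list and comparison), some of the 2 with the smallest p where none passed, and the genes most like the members (8) or *Marco* (5).

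Alternatives were DESeq2 1.42.0, RLE factors, other filters and limits, a replicate block, only the compared groups, each lung left out and limma 3.58.1 on log2 FPKM. Replicate libraries differed beyond sampling noise (chi-square per degree of freedom 2.43 to 15.0 over 72 pairs). The scripts were tested on simulated data. Other steps used Python 3.11.15.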

Additional observations from a re-analysis of the deposited data

Results flagged for a closer look

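Of 48 groups of samples tested for a value apart from the others, 3 were singled out, and chance singles out about 1 in 20 groups. All 3 are high values in tumors of WT hosts. *Marco* was at 4.78 FPKM in the highest of the 6 tumors and at 0.6 FPKM in the next. *Chil3* was at 22.26 FPKM in the highest and at 4.12 FPKM in the next, and *Ear2* at 34.22 and 10.38 FPKM. The *Marco* value belongs to tumor replicate 2 and those of *Chil3* and *Ear2* to replicate 6. No lung stood apart from its group for any of the 8 genes.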

How the results depend on the processing

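With edgeR at an FDR under 0.05 the number of members called was 1 over both genotypes (*Marco*), 0 in WT lungs with tumor, 0 for KO against WT 14-day lungs and 0 for KO against WT control lungs, where 16, 0, 9 and 2 of all 16029 genes tested were called. At an unadjusted p under 0.05 with no fold limit it was 1 in KO lungs with tumor, 2 over both genotypes, 2 for KO against WT 14-day lungs and 1 for the interaction, limits that 8.64%, 11.98%, 8.34% and 8.53% of all genes tested passed. With only the compared groups in the fit it was 0 for 14-day lungs, and with GC offsets, an alternative added after seeing the data, 0 for control lungs. Leaving out each lung in turn gave 1 to 2 members over both genotypes, 0 to 1 for 14-day lungs and 0 to 1 for control lungs, while *Marco* stayed called in WT lungs with tumor in 20 of 20 such fits. DESeq2 gave *Marco* no adjusted p in WT lungs with tumor or for 14-day lungs, because its filter set aside genes with few counts. Without that filter, also added later, 1 member was called in each, *Marco*, with an adjusted p of 0.000975 and 0.0897, among 101 and 41 of 16019 genes called. With DESeq2 as planned, *Marco* had 0.00107 over both genotypes and *Chil3* 0.0322 in control lungs. On log2(FPKM + 1) with limma, *Marco* had an FDR of 0.369 in KO against WT 14-day lungs and *Chil3* 0.354 in control lungs. With a pseudocount of 0.1 these were 0.348 and 0.352.

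Of 1418 refitted log2 fold changes, 0 turned sign beyond 1 SE, and 102 turned sign where the value was within 1 SE of 0. Another 23 lost and 1 gained a call. The median r over pairs was 0.397 on log2(FPKM + 1) and 0.493 without the 2 farthest lungs. With the replicate block, the counts of members called were 1 in WT lungs with tumor and 0 in KO lungs, and the *Marco* change in WT lungs was -1.32. The block changed no call of a member. Over all 16029 genes tested, 152 were called with it in WT lungs with tumor and 129 in KO lungs, against 92 and 42 without it. Same-numbered lungs correlated at -0.219 to 0.252 over 26 pairs, of which 5 were above 0.1. Without the same value for differently numbered lungs, this cannot decide whether the numbers pair the animals. Counts were lowest for *Ear1*, *Marco* and *Msr1*, at 8 to 106 per lung, with *Pparg* close at 37 to 107, so depth limits these genes.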
